A study of Sus scrofa with 75 samples.

Results

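The miR-181 family was described in peripheral blood mononuclear cells (PBMCs) of piglets reared with or without topsoil. A mature miRNA was taken as a member when its name in the deposited count table was miR-181a, b, c or d, with or without an arm. This gave 5 mature names of 457, on 7 of the 479 rows of the table. Where a name had several rows, 1 for each hairpin gene, the row with the largest total was kept. Of the 5 names, miR-181a, miR-181b, miR-181c and miR-181d-5p had reads in all 39 libraries and passed the filter on low counts. The other, miR-181d-3p, had 1 read in 1 library and was not tested.

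miRNAs are short RNAs that guide Argonaute proteins to mRNAs with a site complementary to the seed near the miRNA's 5′ end, and thereby lower the output of those mRNAs. The miR-181 family is abundant in the thymus and in lymphocytes, where miR-181a is known to tune the sensitivity of the T cell receptor by acting on several phosphatases, and where the family takes part in B cell and natural killer cell development. Its members arise from hairpin pairs transcribed together, and members with a common seed can act on many of the same sites.

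The mature sequences are shown to compare the seeds of the members and because members that differ at few bases can exchange reads. They were read from the RefSeq annotation of the pig genome Sscrofa11.1, on the strand of each gene, with bases 2 to 8 (the seed) in capitals.
miR-181a: aACAUUCAacgcugucggugaguu
miR-181b: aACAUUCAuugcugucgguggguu
miR-181c: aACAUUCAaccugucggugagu
miR-181d-5p: aACAUUCAuuguugucgguggguu
miR-181d-3p: cCCACCGAgggaugaaugucac
The 4 members from the 5′ arm shared 1 seed, and miR-181d-3p, from the other arm of its hairpin, had another. Counting positions from 1 at the 5′ end, miR-181a and miR-181b differed by A9U, C10U and A21G. miR-181b and miR-181d-5p differed only by C12U. miR-181c equalled miR-181a without base 11 (G) and with 1 base fewer at its end.

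The 6 hairpins lie in 3 pairs. MIR181A-1 (chr10:21696653-21696756) and MIR181B-1 (chr10:21696492-21696571), both on the minus strand, were 81 bases apart within an intron of the uncharacterised gene LOC110255652 on the same strand. MIR181A-2 (chr1:265497249-265497328) and MIR181B-2 (chr1:265499111-265499196), both on the plus strand, were 1782 bases apart within an intron of NR6A1, which is transcribed from the opposite strand. MIR181C (chr2:65279950-65280036) and MIR181D (chr2:65279773-65279852), both on the minus strand, were 97 bases apart and in no annotated gene. The mature sequence of miR-181a is the same in both of its hairpins, and the counts on its 2 rows were equal in 29 of 39 libraries and differed by at most 10 counts. For miR-181b, also the same in both hairpins, the kept row exceeded the other by 0.512% to 4.87%.

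Of the 13 pigs, 8 were controls with conventional farrowing-crate rearing and 5 (topsoil) had contact with soil, renewed every day, between d 4 and weaning at d 20. By d 56 both groups had spent the time since weaning in a soil-free nursery. All were synthetic large white pigs, and each pig was bled at d 11, d 20 and d 56 of age, giving 39 small RNA libraries from PBMCs of a density gradient. The groups and ages were taken from the titles and descriptions, which match the column names. The sample characteristics gave the same treatment in 19 libraries, the same age in 14 and both in 6 of 39, and were not used.

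Counts summed over 1 row for each name ranged from 1634831 to 13494765 per library (median 10407253). miR-486, abundant in red blood cells, took 11.8% to 95.5% of them, with medians of 91.4% and 88.9% in control and topsoil pigs at d 11 and 42.3% and 37.9% at d 56. Of the markers for the labelled cells, miR-150 and miR-342 of lymphocytes, miR-142-3p and miR-142-5p of leukocytes and miR-223 of myeloid cells had reads in every library. The counts without miR-486 were 389906 to 6343113 per library, and levels are given on 2 scales. The first is CPM (counts scaled to a common library size) with the size set by the 75% quantile (scaled CPM), which divides by the effective library size and can exceed the raw share. The second is CPM with miR-486 left out of the total.

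The family made up 12.4% to 51.6% of the counts other than miR-486 (median 23.7%). In control pigs its share was 22.4% ± 7.27 (SD, n = 8) at d 11, 20.5% ± 7.63 at d 20 and 35.3% ± 8.56 at d 56. In topsoil pigs it was 19.5% ± 3.27 (SD, n = 5), 22.1% ± 7.62 and 30.6% ± 5.50. The share was thus highest at d 56 in both treatments, at the age at which the miR-486 share was lowest, and the treatments overlapped at each age.

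**Figure D1:**
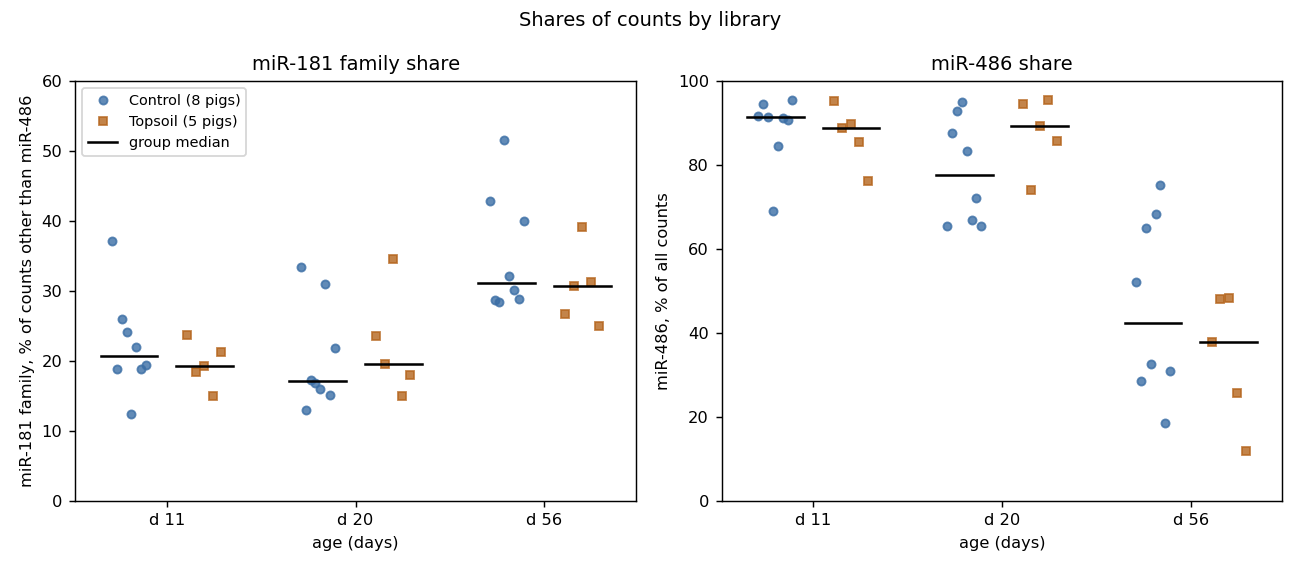
Share of counts by library, with the miR-181 family as a percentage of counts other than miR-486 (left) and miR-486 as a percentage of all counts (right), against age. Circles are 8 control pigs, squares 5 topsoil pigs and bars group medians. The family share ran from 12.4% to 51.6% and the miR-486 share from 11.8% to 95.5%.

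miR-181a carried 92.5% to 95.9% of the family's counts and ranked between 1 and 4 among all miRNAs of a library. miR-181b followed with 3.94% to 7.14%, miR-181d-5p with 0.0399% to 0.625% and miR-181c with 0.0188% to 0.327%. This order held in 37 of 39 libraries. In the other 2, both at d 56, miR-181c exceeded miR-181d-5p. All 4 are read from the 5′ arm and have 22 to 24 bases, so these shares compare counts with no correction for length. The lowest count of miR-181c was 21, in control pig 8 at d 11, with an exact Poisson 95% interval of 13.0 to 32.1 counts that covers counting error only. The lowest counts of the others were 211 for miR-181d-5p, 5212 for miR-181b and 70246 for miR-181a.

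The first question was how the members changed as the piglets grew from suckling to the end of the nursery. miR-181a and miR-181b rose between d 11 and d 56, while the d 56 minus d 11 differences of miR-181c and miR-181d-5p over all pigs did not pass the edgeR test. DESeq2 called miR-181d-5p lower over all pigs (-0.58, adjusted p = 0.063). On scaled CPM the level of both abundant members was higher at d 56 in all 13 pigs, as it was for 11 of the 209 tested miRNAs (5.26%). With miR-486 left out of the total this held for miR-181a, while miR-181b was higher in 11 pigs and lower in 2, and 4 of the 209 miRNAs (1.91%) were higher in all 13. The whole table was fitted at once, with pig as a block, and a change was called at an adjusted p under 0.10 over 209 miRNAs.

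For miR-181a, the most abundant member, control pigs had 19790, 33560 and 77450 scaled CPM (lowest, median and highest of 8) at d 11. At d 20 the same values were 20130, 33060 and 73760, and at d 56 they were 55080, 72800 and 131800. The lowest control at d 56 lay above the median of both earlier ages, although the ranges overlapped. The 5 topsoil pigs, in the order of their numbers, had 35830, 33230, 53060, 24160 and 33440 scaled CPM at d 11. At d 20 they had 55290, 28730, 77710, 18640 and 36580, and at d 56 they had 53560, 68650, 73820, 62850 and 59220. In topsoil pigs every d 56 value lay above every d 11 value, by a narrow margin (53560 against 53060), and d 20 spanned both. Of all 209 miRNAs, 23 (11%) had every topsoil d 56 value above every d 11 value. Over all pigs miR-181a rose by a log2 change of 1.03 (SE 0.19, adjusted p = 0.000172) from d 11 to d 56, a 2.04-fold rise with a 95% interval of 1.57 to 2.65. From d 20 to d 56 the log2 change was 0.95 (SE 0.21, adjusted p = 0.00133). From d 11 to d 20 it was 0.08 (SE 0.19) and did not pass the test. With the miR-486 level as a term in the fit, the changes from d 11 and from d 20 to d 56 were 0.72 and 0.68. Neither was then called (adjusted p = 0.239 and 0.211).

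miR-181b, which shares both of its clusters with miR-181a, moved with it. Control pigs had 1382, 2088 and 3317 scaled CPM (lowest, median and highest) at d 11 and 2620, 3470 and 6971 at d 56. Topsoil pigs had 2516, 2309, 2611, 1687 and 2371 at d 11 and 3049, 3982, 5447, 3416 and 3674 at d 56. The topsoil values of the 2 ages did not overlap on this scale but did with miR-486 left out of the total, where 3 of 5 lay above the highest d 11 value. In control pigs 4 of 8 values at d 56 lay above the highest at d 11. The log2 change from d 11 to d 56 over all pigs was 0.85 (SE 0.17, adjusted p = 0.000343), a 1.80-fold rise with a 95% interval of 1.44 to 2.27. From d 20 to d 56 it was 0.71 (SE 0.18, adjusted p = 0.00511). With the miR-486 level as a term in the fit, these 2 changes were 0.63 and 0.52 and were not called (adjusted p = 0.303 and 0.364).

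The share of all tested miRNAs called higher was 17.2% between d 56 and d 11, against 2 of the 4 members, and 8.13% were called lower by edgeR, against none of the members (1, miR-181d-5p, with DESeq2 or with totals without miR-486). In all, 25.4% were called in that comparison. Between d 56 and d 20, 16.3% were called, 10% higher and 6.22% lower, against the same counts of 2 and none of the members. Between d 20 and d 11, edgeR called none of the 209 miRNAs (0%), with 12 at an unadjusted p under 0.05, where DESeq2 called 5 and limma voom none. The median log2 change from d 11 to d 56 was 0.55 over the 4 members and 0.46 over all 209 miRNAs, so that much of the table lay above zero on this scale. miR-181a ranked 8 and miR-181b 10 of 209 by p in this comparison, but 49 and 64 by size of the log2 change.

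**Figure D2:**
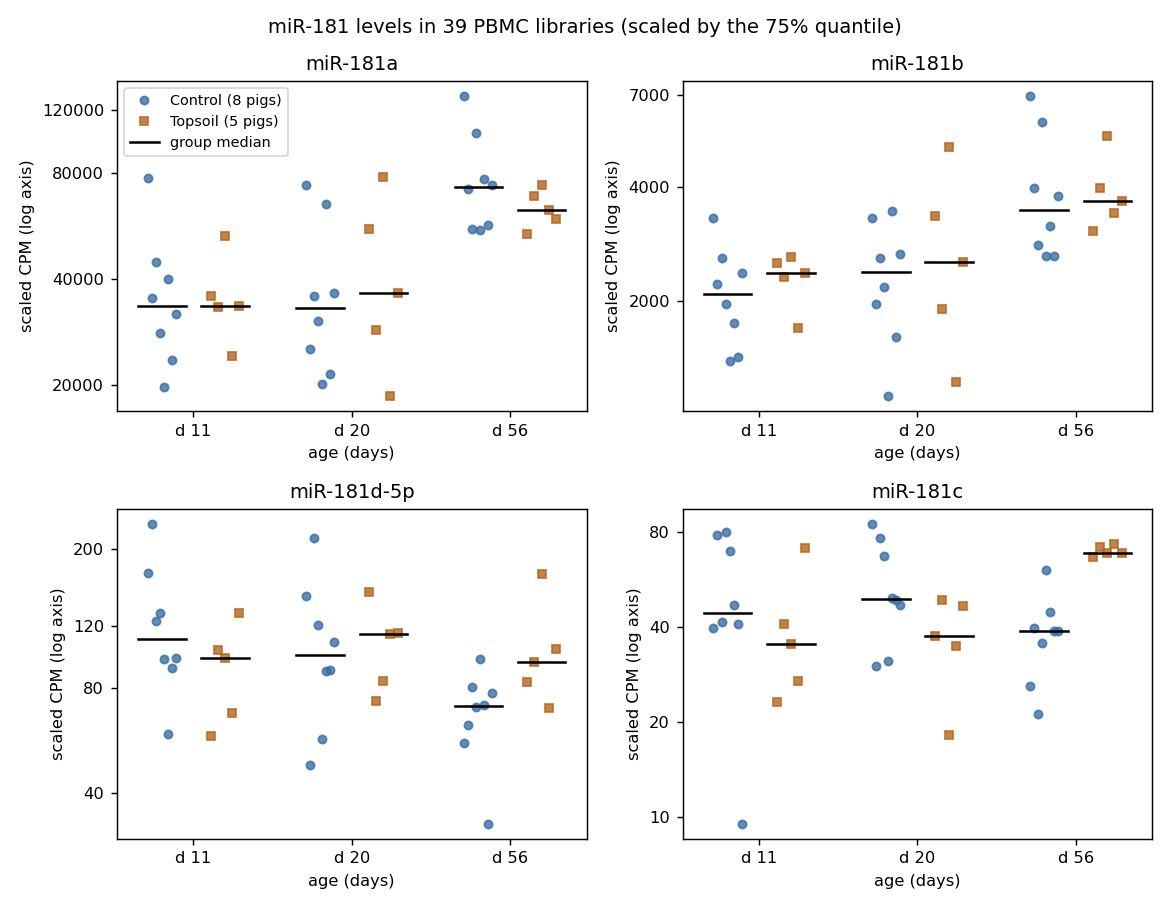
Level of each member in every library, as scaled CPM on a log axis, against age. Circles are 8 control pigs, squares 5 topsoil pigs and bars group medians. miR-181a and miR-181b lay highest at d 56, and for miR-181c the 5 topsoil pigs at d 56 (66.7 to 73.3 scaled CPM) lay above the 8 control pigs (21.3 to 61.0). These miR-181c ranges overlapped with TMM and with miR-486 left out of the total.

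Within each treatment the abundant members again rose from d 11 to d 56. In control pigs miR-181a rose by 1.16 (SE 0.25, adjusted p = 0.00156) and miR-181b by 0.93 (SE 0.22, adjusted p = 0.00367) on the log2 scale, beside 17.7% of all miRNAs called and 12.9% called higher. With miR-486 left out of the totals the control change of miR-181b was 0.51 and was not called (adjusted p = 0.121). With the miR-486 level as a term in the fit, the control changes of miR-181a and miR-181b were 0.87 and 0.73. Neither was then called (adjusted p = 0.119 and 0.19). In topsoil pigs miR-181a rose by 0.90 (SE 0.29, adjusted p = 0.0506) and miR-181b by 0.77 (SE 0.25, adjusted p = 0.052), where 13.4% of all miRNAs were called and 7.66% called higher. With miR-486 left out of the totals the topsoil changes were 0.66 and 0.52 and were not called (adjusted p = 0.109 and 0.199). Without the pig block they were 0.82 and 0.78 with adjusted p = 0.206 and 0.162. They also missed the threshold with topsoil pig 2, 4 or 5 left out, when the adjusted p ran from 0.119 to 0.161, and without topsoil pig 3 miR-181b had an adjusted p = 0.107. Between d 20 and d 56, control pigs had calls for miR-181a (1.14, SE 0.24, adjusted p = 0.00133) and miR-181b (0.78, SE 0.21, adjusted p = 0.012), beside 12.4% of all miRNAs called, 5.74% higher and 6.7% lower. With the miR-486 term this change of miR-181b was 0.64 and was not called (adjusted p = 0.125). Topsoil pigs had none of the members called, at 0.75 and 0.65 with an adjusted p = 0.151 for each, beside 9.57% called, 6.22% higher and 3.35% lower. Between d 11 and d 20 no member was called in either treatment, beside 5.26% of all miRNAs called in control pigs, all of them higher, and 0% in topsoil pigs. That control count of 11 was 0 without control pig 2 or 8, 1 without control pig 3 or topsoil pig 5, 2 without control pig 1 or 6, 4 without control pig 4, 5 without topsoil pig 3, 7 without topsoil pig 2 and 18 without control pig 5. It was 28 with limma voom and 5 with DESeq2, of which 3 were lower.

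The minor members changed otherwise. miR-181d-5p was called lower at d 56 than at d 11 in control pigs, with a log2 change of -0.90 (SE 0.32, adjusted p = 0.0542), where 4.78% of all miRNAs were called lower, but the change was 0.76 and not called when libraries were scaled by total counts, and -0.40 (adjusted p = 0.663) with the miR-486 level as a term in the fit. Control values were 58.9, 111 and 236 scaled CPM (lowest, median and highest) at d 11, 48.2, 99.2 and 215 at d 20, and 32.6, 71.0 and 96.7 at d 56. Of the 8 control pigs 6 fell and 2 rose, and the call was lost without control pig 1 (adjusted p = 0.14), control pig 7 (0.159) or topsoil pig 3 (0.175). In topsoil pigs the levels were 58.2, 103, 97.2, 67.7 and 131 scaled CPM at d 11, 150, 73.3, 83.5, 114 and 115 at d 20, and 83.4, 95.1, 170, 69.9 and 103 at d 56. The topsoil ages overlapped, with a log2 change from d 11 to d 56 of 0.17 (SE 0.37, adjusted p = 0.856). The 8.13% of all miRNAs called lower over all pigs did not include miR-181d-5p, at -0.37 (SE 0.25, adjusted p = 0.323).

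miR-181c, the least abundant member and the cluster neighbour of miR-181d-5p, had the widest gap between treatments at d 56. Control pigs had 9.51, 44.3 and 80.5 scaled CPM (lowest, median and highest) at d 11, 30.1, 49.2 and 85.2 at d 20, and 21.3, 38.9 and 61.0 at d 56. Topsoil pigs had 23.2, 40.8, 35.3, 27.1 and 71.3 at d 11, 37.5, 48.8, 18.1, 35 and 46.6 at d 20, and 66.7, 72.1, 68.6, 73.3 and 68.8 at d 56. On scaled CPM at d 56 the 5 topsoil pigs therefore lay above all 8 control pigs, with an SD of 3.87% of the mean in topsoil and 31.3% in control pigs. With TMM the ranges overlapped, at 56.1 to 75.6 in topsoil pigs against a highest control of 64.7. With miR-486 left out of the total, 1 of 5 topsoil pigs lay above the highest control. The topsoil SD was 9.23% of the mean with miR-486 left out of the total, 12.4% with TMM and 20.5% with total counts, against 44.6%, 38.7% and 51.0% in control pigs. Over all 209 miRNAs, 2 (0.957%) had every topsoil pig above every control pig at that age on scaled CPM and none every topsoil pig below. With miR-486 left out of the total none did either.

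The study asked how expression changed over time in response to topsoil. With its own model, which differs from the one used here, it reported miRNAs with a treatment by age interaction at a false discovery rate under 0.10. In the joint test of the treatment by age terms edgeR called none of the 209 miRNAs (0%), and 22 had an unadjusted p under 0.05. DESeq2 also called none, and limma voom called 2, neither of them a member. The adjusted p of the edgeR test was 0.462 for miR-181c, which ranked 7 of 209, 0.546 for miR-181d-5p, 0.924 for miR-181a and 0.987 for miR-181b. Between d 20 and d 56 miR-181c changed by -0.60 (SE 0.35) in control pigs and by 0.87 (SE 0.45) in topsoil pigs, neither of which passed the test. The difference between these changes was 1.47 (SE 0.54, adjusted p = 0.279). All 5 topsoil pigs had more miR-181c at d 56 than at d 20 on scaled CPM, as had 2 of 8 control pigs, and 4 of 5 had with TMM or with miR-486 left out of the total. On scaled CPM 35 of the 209 miRNAs (16.7%) were higher at d 56 than at d 20 in every topsoil pig.

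Compared at each age, none of the members was called between topsoil and control pigs. The share of all miRNAs called was 0% at d 11, 0.478% at d 20 (1 miRNA, higher in topsoil) and 0% at d 56. At an unadjusted p under 0.05 there were 6, 26 and 6 miRNAs at the 3 ages, and DESeq2 called 0, 3 and 0, none of them a member. At d 56 miR-181c was higher in topsoil pigs by a log2 difference of 0.87 (SE 0.25), a fold of 1.83 with a 95% interval of 1.29 to 2.58. In the edgeR test it ranked 1 of 209 by p, with an adjusted p = 0.587, and its log2 difference was 0.82 to 1.15 whether libraries were scaled by the 75% quantile, by TMM or by total counts with or without miR-486. On CPM with miR-486 left out of the total, the topsoil pigs ranged from 272 to 345 and the control pigs from 80.4 to 339 at d 56, so that 1 of 5 topsoil pigs lay above the highest control. miR-181d-5p differed by 0.61 (SE 0.27, adjusted p = 0.862) at d 56. On scaled CPM 2 of 5 topsoil pigs lay above every control pig for miR-181d-5p, and 1 of 5 did with miR-486 left out of the total. miR-181a and miR-181b differed by -0.30 (SE 0.28) and -0.03 (SE 0.27), with overlapping ranges.

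The size of each change depended on how the libraries were scaled. Scaled by total counts, in which miR-486 is included, the log2 change from d 11 to d 56 over all pigs was 3.04 for miR-181a, 2.83 for miR-181b, 2.13 for miR-181c and 1.56 for miR-181d-5p, and all 4 were called higher, as were 161 of the 209 miRNAs. On that scale the median of all miRNAs was 2.38. With miR-486 left out of the total, the changes were 0.70, 0.52, -0.08 and -0.68, with a median of 0.14 over all miRNAs, and miR-181d-5p was called lower (adjusted p = 0.0804). With TMM they were 0.87, 0.69, 0.08 and -0.53, with a median of 0.29. The direction of miR-181c and miR-181d-5p over all pigs thus flipped with the scaling. A change of scaling moves all miRNAs nearly alike, so the distance of a member from their median is almost fixed by construction. Over these 4 scalings miR-181a lay 0.56 to 0.66 above it, miR-181b 0.38 to 0.45 above, miR-181c 0.21 to 0.25 below and miR-181d-5p 0.82 to 0.83 below.

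**Figure D3:**
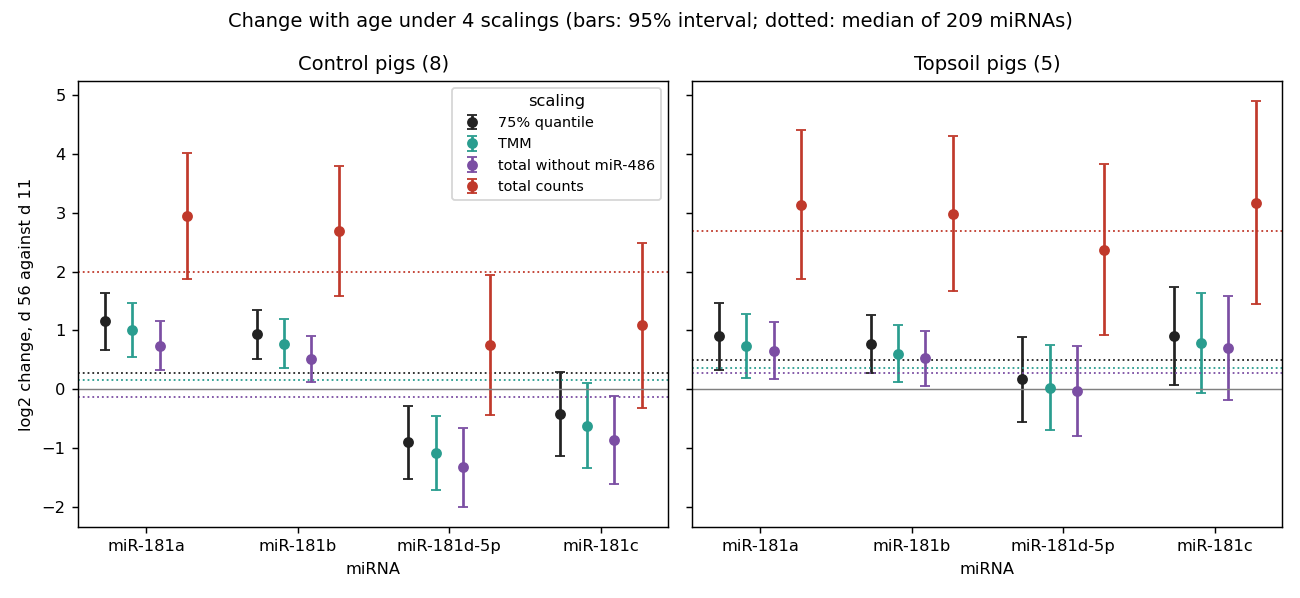
Log2 change of each member from d 11 to d 56 in control (left) and topsoil (right) pigs under 4 scalings of the libraries. Points are fitted changes, bars 95% intervals and dotted lines the median of the 209 miRNAs under the same scaling. In control pigs miR-181a and miR-181b lay above the median and miR-181c and miR-181d-5p below it, although both of the latter lay above 0 with total counts, a scaling that shifts all miRNAs together. In topsoil pigs miR-181c also lay above the median.

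A ratio of 2 members within a library does not depend on scaling, so 4 such ratios were tested with exact permutation tests, over the signs of the within-pig change for age and over the treatment labels at each age. Of 24 tests, adjusted together, 7 of 12 for age and 4 of 12 for treatment passed at 0.10, and 5 of these 11 passed with any 1 pig left out. The smallest p these tests could give was 0.000244 for age and 0.000777 for treatment.

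miR-181d-5p fell relative to miR-181a as the pigs aged. In control pigs its counts were 0.147%, 0.347% and 0.67% (lowest, median and highest) of those of miR-181a at d 11 and 0.0421%, 0.0905% and 0.176% at d 56. In topsoil pigs the ratio ranged from 0.163% to 0.392% at d 11 and from 0.111% to 0.23% at d 56. The ratio fell in 12 of 13 pigs from d 11 to d 56, by 1.45 ± 1.03 (SD, n = 13 pigs) on the log2 scale (exact two-sided sign-flip permutation p = 0.000732, adjusted p = 0.0176). Between d 20 and d 56 it fell in 12 of 13 pigs, by 1.35 ± 1.09 (exact permutation p = 0.00171, adjusted p = 0.0205). Both passed with each pig left out in turn.

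miR-181c over miR-181a fell by 0.82 ± 1.17 from d 11 to d 56 (9 of 13 pigs, exact permutation p = 0.0271, adjusted p = 0.0813) and by 0.88 ± 1.35 from d 20 to d 56 (11 of 13 pigs, exact permutation p = 0.0398, adjusted p = 0.0949). These missed the threshold in 8 and 11 of the 13 runs that left out a pig. Between d 20 and d 56 the ratio fell in 8 of 8 control pigs, by 1.59 ± 0.92 on the log2 scale (SD, n = 8), and in 3 of 5 topsoil pigs, whose mean change was 0.27 ± 1.15 (SD, n = 5). The difference between these changes, tested after seeing the data, had an adjusted p = 0.0932 in an exact permutation test over 12 such differences, and was lost in 7 of the 13 runs that left out a pig.

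At d 56 the ratio of miR-181c to miR-181a was higher in topsoil than in control pigs. Topsoil pigs had 0.093%, 0.105%, 0.116%, 0.117% and 0.125%, in rising order, and control pigs had 0.0198%, 0.054% and 0.111% (lowest, median and highest). Of the 8 control pigs, 1 lay within the topsoil range and 7 below it. The difference was 1.17 on the log2 scale, a ratio 2.25-fold higher (exact two-sided permutation p = 0.00466, adjusted p = 0.0337), and it passed with each pig left out (adjusted p 0.0234 to 0.0727). At d 11 and d 20 the differences were -0.28 and -0.69, with adjusted p = 0.776 and 0.422 in the exact permutation test. miR-181d-5p over miR-181a differed in the same direction at d 56, by 0.84 (exact permutation p = 0.0249, adjusted p = 0.0813), but passed in only 5 of 13 runs that left out a pig. Its differences at d 11 and d 20 were -0.42 and -0.08, with adjusted p = 0.46 and 0.872 in the exact permutation test.

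**Figure D4:**
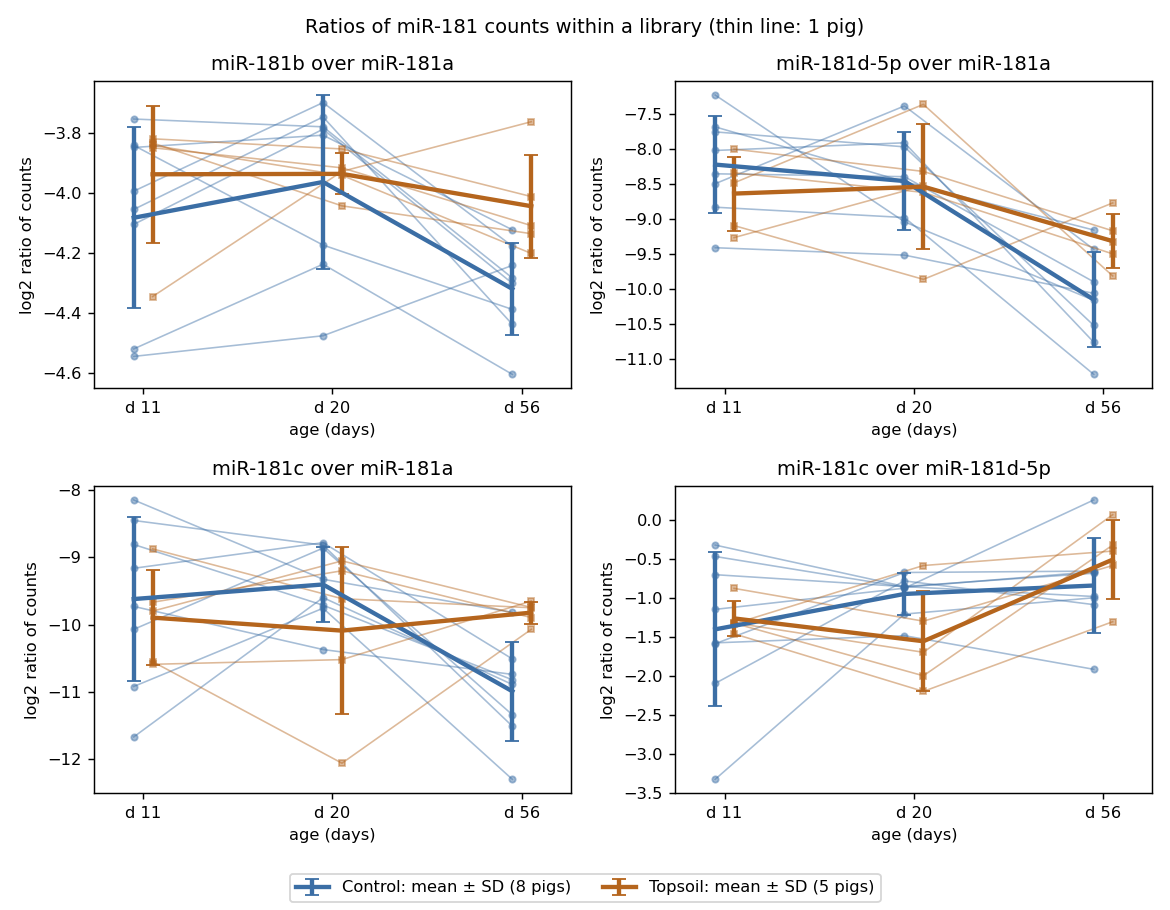
Log2 ratio of the counts of 2 members within a library against age. Thin lines join the 3 libraries of a pig and thick lines give the mean ± SD of 8 control (blue circles) and 5 topsoil (brown squares) pigs. At d 56 the ratio of miR-181c to miR-181a was 0.0198% to 0.111% in control pigs and 0.093% to 0.125% in topsoil pigs, which is -10.99 ± 0.74 and -9.82 ± 0.16 on the log2 scale plotted.

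miR-181b over miR-181a moved over a narrower range. It was 4.11%, 5.1% and 5.74% (lowest, median and highest) in control pigs at d 56, and 5.44%, 5.69%, 5.8%, 6.2% and 7.38% in the 5 topsoil pigs in rising order. The ranges overlapped, with 3 topsoil pigs above the highest control. The topsoil pigs were higher by 0.28 on the log2 scale (exact two-sided permutation p = 0.00932, adjusted p = 0.0448). With age the ratio fell in 11 of 13 pigs from d 20 to d 56, by 0.26 ± 0.27 (exact permutation p = 0.00562, adjusted p = 0.0337). Both passed with each pig left out. From d 11 to d 56 the mean change of the ratio was -0.19, and from d 11 to d 20 it was 0.07. Neither passed (adjusted p = 0.114 and 0.46 in the exact permutation test).

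Within the cluster on chromosome 2, miR-181c rose relative to miR-181d-5p, by 0.64 ± 0.83 from d 11 to d 56 (9 of 13 pigs, exact permutation p = 0.0159, adjusted p = 0.0635) and by 0.47 ± 0.71 from d 20 to d 56 (10 of 13 pigs, exact permutation p = 0.0356, adjusted p = 0.0949). These passed in 11 and 2 of the 13 runs that left out a pig. At d 20 the ratio was lower in topsoil pigs, at 21.8%, 25%, 30.8%, 40.7% and 66.7% in rising order against 35.7%, 55.1% and 62.7% (lowest, median and highest) in control pigs. The ranges overlapped, and the log2 difference of -0.61 (exact permutation p = 0.0435, adjusted p = 0.0949) passed in only 2 of 13 runs that left out a pig. At d 56 the difference was 0.33 (adjusted p = 0.48 in the exact permutation test).

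miR-181d-5p differs from the far more abundant miR-181b at 1 base, and the number of mismatches allowed in the authors' counting is not given in the sources used here. The counts of miR-181d-5p were 0.794% to 10.7% of those of miR-181b, with a median of 5.78% in control and 4.01% in topsoil pigs at d 11 and of 1.81% and 2.74% at d 56. A share of miR-181b read as miR-181d-5p would count toward miR-181d-5p and was not tested.

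Across the 39 libraries the correlation was highest between members that are genomic neighbours. On log2 scaled CPM the Spearman correlation was 0.945 between miR-181a and miR-181b, 0.499 between miR-181c and miR-181d-5p, and between -0.081 and -0.003 for each pair made of 1 abundant and 1 minor member. After subtraction of the mean of each treatment and age these were 0.901, 0.476 and -0.128 to 0.369. On scaled CPM from d 11 to d 56, miR-181a and miR-181b changed in the same direction in 13 of 13 pigs, and miR-181c and miR-181d-5p in 9 of 13. The 39 libraries come from 13 pigs and share their scaling, so these correlations are a description.

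Of the 205 tested miRNAs outside the family, those with the highest Spearman correlation to miR-181a over the 39 libraries were miR-378 (0.835), miR-92b-3p (0.829), miR-150 (0.780), miR-23a (0.698) and miR-222 (0.682). The gene of miR-23a lies on chromosome 2, 28080 bases from MIR181C and on the opposite strand. With miR-486 left out of the scaling 4 of these remained among the closest 5, and after subtraction of the group means 3 did. miR-150, an abundant lymphocyte miRNA, then had the highest value, 0.802. The other lymphocyte marker, miR-342, had 0.296 over the 39 libraries and ranked 58 of 205. It ranked 82 with miR-486 left out of the scaling, and 10 after subtraction, with 0.568. The leukocyte markers miR-142-5p and miR-142-3p had 0.405 and 0.142 before subtraction and -0.148 and -0.205 after it. The red blood cell miRNA miR-144 had the lowest value of the 205 before and after subtraction, -0.807 and -0.695. It ranked 202 with miR-486 left out of the scaling. The other red blood cell markers had -0.750 and -0.597 (miR-451) and -0.402 and 0.177 (miR-486) before and after subtraction.

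Marker miRNAs of other cells moved over the same interval. The red blood cell miRNAs miR-486, miR-451 and miR-144 were all 3 called lower at d 56 than at d 11, with log2 changes of -3.34, -1.62 and -2.51, and the summed level of the 3 was 280600 to 3742000 scaled CPM in control pigs at d 11 and 46760 to 808900 at d 56. In topsoil pigs the sum was 540900 to 3253000 at d 11 and 33910 to 219000 at d 56. Scaled by total counts, only miR-486 of these was called, with miR-451 at 0.36 and miR-144 at -0.59. Of the lymphocyte miRNAs, miR-150 was called higher, by 0.87 (SE 0.21, adjusted p = 0.00292), and miR-342 was not called (-0.20, SE 0.29). Their summed level was 1236 to 6182 scaled CPM at d 11 and 2896 to 5966 at d 56 in control pigs, and 1290 to 4535 and 3322 to 6968 in topsoil pigs. Of the leukocyte miRNAs, miR-142-5p was called higher, by 1.55 (SE 0.24), and miR-142-3p was not (0.71, SE 0.42). Their sum was 200 to 1937 scaled CPM at d 11 and 1444 to 6913 at d 56 in control pigs, and 847 to 1747 and 2766 to 4016 in topsoil pigs.

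The myeloid miRNA miR-223 was not called (0.60, SE 0.33), with 15.1 to 58.9 scaled CPM at d 11 and 12.6 to 54.3 at d 56 in control pigs and 11.12 to 33.7 and 37.7 to 47.9 in topsoil pigs. Of the platelet and endothelial miRNAs, miR-126-3p and miR-126-5p were not called and both arms of miR-145 had no read in any d 11 library. Their sum was at most 45.1 scaled CPM at d 11 and 14.1 at d 56. Scaled by total counts, miR-342 (1.84), miR-142-3p (2.51), miR-223 (2.51), miR-126-3p (3.17) and miR-126-5p (3.00) were each called higher. In bulk PBMCs a change in the number of cells of a type and a change in the RNA of each cell cannot be told apart. With the log2 ratio of miR-486 to all other counts as a term in the fit, the change from d 11 to d 56 over all pigs was 0.72 for miR-181a (adjusted p = 0.239) and 0.63 for miR-181b (adjusted p = 0.303), and 2 of the 209 miRNAs were called against 53 without the term. The miR-486 share itself fell with age, so the term and age overlap in this fit. A loss of calls with the term therefore cannot tell the 2 apart. At d 56, where the ratio of miR-181c to miR-181a differed, the red blood cell sum was 33910 to 219000 scaled CPM in topsoil and 46760 to 808900 in control pigs, and the lymphocyte sum 3322 to 6968 and 2896 to 5966. These sums are nearly those of miR-486 and miR-150. The mean of miR-451 was 191 ± 103 scaled CPM in topsoil and 161 ± 87.7 in control pigs (SD, n = 5 and 8), that of miR-144 was 3.93 ± 3.20 and 2.99 ± 2.68, and that of miR-342 was 208 ± 43.3 and 318 ± 199.5, with overlapping ranges for all 3. The part of these markers in the miR-181 values was not tested.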

How the data were processed

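PBMC small RNA of 13 pigs at 3 ages gave 39 libraries, made as 50-bp single-end reads on 1 lane. The authors trimmed reads with Trim Galore 0.4.5 after FastQC 0.11.3 and mapped and counted them with miRDeep2 on Sscrofa11.1 (miRDeep2 version and mismatch setting are not given in the sources used here). They deposited raw counts per miRNA entry, without normalization, and these counts were analysed.

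Here the largest entry stood for each mature name. The low-count filter asked for reads in 17 or more libraries and a mean count over 2, and the 209 miRNAs that passed were fitted with edgeR 4.0.16 (R 4.3.3) quasi-likelihood models, after scaling by the 75% quantile. The model for age and interaction held pig, RNA quality index (RQI), age and treatment by age; topsoil was compared with control at each age alone. P-values were adjusted by Benjamini-Hochberg over 209 miRNAs, with calls under 0.10. Ratios used log2 counts with 0.5 added and exact two-sided permutation tests in Python 3.11.15 (scipy 1.17.1). limma 3.58.1 and DESeq2 1.42.0 served as alternatives. Scripts were tested on simulated counts.

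The labels give each pig 1 library per age, so pig numbers pair the libraries across ages. Deviations from group means correlated at 0.0554 on average between ages of a pig (39 pairs) and -0.00298 between different pigs (228 pairs). Named miRNAs were all family members, the marker miRNAs, miR-486 and the 5 others most correlated with miR-181a. Members, lists and tests were chosen with earlier results of these data known. The mRNA libraries and the study's own test columns were not used. The study's model also held parity, sex and litter size. Totals were 1634831 to 13494765 counts per library, and the Poisson interval covers counting error only, since reads carry no molecular identifiers. The SEs of log2 changes were worked back from the F statistic of the edgeR fit and include the variation between pigs. The intervals of fold changes use these SEs with a normal approximation, and so can be too narrow for this number of pigs.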

Additional observations from a re-analysis of the deposited data

Results flagged for a closer look

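Of 54 groups searched (levels, family shares and log2 ratios by treatment and age), 3 held a library far from the others, where chance would give about 1 in 20, or 2.7. miR-181a in control pig 1 at d 11 was 77450 scaled CPM, against 44700 in the next control. The log2 ratio of miR-181b to miR-181a in topsoil pig 3 at d 11 was -4.345, against -3.848 in the next topsoil pig. The log2 ratio of miR-181c to miR-181d-5p in topsoil pig 5 at d 11 was -0.8777, against -1.32 in the next.

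The change of a ratio with age was compared between treatments in 12 exact permutation tests chosen after seeing the data, and 3 passed at 0.10. From d 20 to d 56 the log2 ratio of miR-181c to miR-181a changed by 1.856 more in topsoil than in control pigs (exact permutation p = 0.00932, adjusted p = 0.0932), and from d 11 to d 56 by 1.445 more (exact permutation p = 0.0233, adjusted p = 0.0932). From d 20 to d 56 the ratio of miR-181c to miR-181d-5p changed by 0.9383 more (exact permutation p = 0.0233, adjusted p = 0.0932), and it rose in all 5 topsoil pigs and in 5 of 8 control pigs. None of the 3 passed with each pig left out in turn, and their number then ran from 0 to 5.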

How the results depend on the processing

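Among the 4 members tested, none was called for the treatment by age interaction, between treatments at any age, or from d 11 to d 20, under any alternative. Over all pigs 2 members were called from d 11 to d 56 and 2 from d 20 to d 56; this became 4 and 4 with total counts, and 0 and 0 with the miR-486 term, chosen after seeing the data like robust estimation. DESeq2 and totals without miR-486 also called miR-181d-5p lower from d 11 to d 56 over all pigs. With the miR-486 term control pigs had 0 (d 11 to d 56, from 3) and 1 (d 20 to d 56, from 2), and with totals without miR-486 they had 2 from d 11 to d 56, when miR-181b was lost. Topsoil pigs had 2 members called from d 11 to d 56, but 0 with every entry kept, limma voom, the miR-486 term, no filter, no pig block or totals without miR-486, 1 with TMM and 4 with total counts; from d 20 to d 56 they had 0, but 1 with robust estimation and 4 with total counts. With total counts 137 and 106 of the 209 miRNAs were called in topsoil pigs over these 2 intervals. All miRNAs called from d 11 to d 56 numbered 53, but 162 with total counts and 2 with the miR-486 term; from d 20 to d 56 they numbered 34, but 108 and 1, and 52 with DESeq2.

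With 1 pig left out, members called from d 11 to d 56 were 2 to 2 over all pigs, 2 to 3 in control and 0 to 2 in topsoil pigs, and from d 20 to d 56 2 to 2, 2 to 3 and 0 to 2. In topsoil pigs the count from d 20 to d 56 was 2 without control pig 6 and 1 without topsoil pig 3, and that from d 11 to d 56 was 0 without topsoil pig 2, 4 or 5 and 1 without topsoil pig 3. Ratios that passed were 3 to 7 for age (3 without control pig 2 or 7, 4 without control pig 4, 5 or 6 or topsoil pig 5) and 2 to 4 for treatment (2 without control pig 1, 2, 4, 6 or 7 or topsoil pig 1, 3 or 5). For the difference in change they were 0 to 5 (0 without control pig 2, 3 or 4 or topsoil pig 1, 3, 4 or 5, 1 without control pig 5, and 5 without topsoil pig 2).

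Without the pig block no other count of members moved by over 1.5 times, and the log2 change from d 11 to d 56 over all pigs was 0.94 for miR-181a and 0.87 for miR-181b.

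Changes of the minor members turned direction as follows. With the miR-486 term miR-181d-5p was 0.20 (d 11 to d 56, all pigs), 0.065 (d 20 to d 56, all pigs) and 0.47 (d 20 to d 56, topsoil), and miR-181c was -0.033 and -0.11 over all pigs. With total counts miR-181d-5p was 1.56 and 1.16 over all pigs, 0.76 (which had been called lower) and 0.20 in control and 2.12 (d 20 to d 56) in topsoil pigs, and miR-181c was 1.09 and 0.32 in control pigs. With totals without miR-486 miR-181c was -0.079 and -0.10 over all pigs and miR-181d-5p -0.029 (d 11 to d 56, topsoil). With 1 pig left out miR-181d-5p in topsoil pigs ranged from -0.017 to 0.31 (d 11 to d 56) and from -0.37 to 0.11 (d 20 to d 56). The cause was not tested. Depth limits miR-181c most, with 21 counts in 1 library.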
